A study of Mus musculus with 8 samples.

Results

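The 48 genes described here encode the proteasome, the enzymes and scaffold proteins that attach to it and the chaperones that build it. They are the rows of the gene count table whose symbols start with Psm, followed by a letter from a to g and a number, and all 48 such rows, of 35494 symbols in the table, had at least 10 counts summed over the 8 libraries. Counts came from bulk RNA sequencing of the quadriceps of male C57BL/6 mice of wild-type (WT) genotype that were 8 weeks old when the study began. The control group was 4 mice given PBS under the skin, and the scMC38 group was 4 mice given MC38 cells, a mouse colorectal cancer line, by the same route. For the fluid that carried the cells, the series design names sterile saline and the treatment protocol names PBS. Muscle was taken at day 28, with 1 library per mouse by the labels. MC38 is 1 established line, and its tumours grew under the skin rather than in the colon. The size of each tumour was not used here.

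Library totals ran from 50465191 to 62105583 estimated counts, and levels are given as CPM, counts relative to library size, scaled between libraries by the trimmed mean of M-values (TMM). The tissue label matched its markers: 9 muscle genes, among them Acta1, Ckm and Myh4, summed to 97745 to 134430.0 CPM in controls and 97092 to 137223 CPM in scMC38, with none at 0. The libraries scMC38 1 and scMC38 3 stood apart from the others. The 9 neutrophil genes summed to 434 and 3926 CPM in them, against 11.99 and 34.1 CPM in scMC38 2 and 4 and 1.88 to 7.93 CPM in controls, and the 7 bone genes reached 75.2 and 577 CPM against at most 22.9 CPM in the other 6 libraries. Controls 1 and 2 held 24.3% and 29.7% mitochondrially encoded counts, against 14.4% to 18.9% in the other 6. In bulk tissue, fewer cells of a type and less RNA per cell cannot be told apart.

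The proteasome degrades proteins that carry a ubiquitin chain. Its 20S core is a barrel of stacked rings: the outer rings are made of alpha subunits, which gate the entrance, and the inner rings of beta subunits, among which PSMB5, PSMB6 and PSMB7 cut the substrate. The 19S regulatory particle caps the barrel, and its subunits bind the ubiquitin chain, remove it, and use ATP to unfold the substrate and thread it inward. In cells exposed to interferon-gamma, and in many immune cells, PSMB8, PSMB9 and PSMB10 take the places of the catalytic subunits and form the immunoproteasome, which favours peptides for antigen presentation. In skeletal muscle the ubiquitin-proteasome system is a main route by which myofibrillar proteins are broken down in wasting.

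Most proteasome genes had slightly higher mRNA in scMC38 than in control muscle, and the largest fold changes belonged to the non-ATPase subunits of the 19S particle. Of the 48 genes, 46 passed the filter on low counts and were tested, and 37 of these had a positive log2 fold change (34 to 44 under the other scalings tried), where 50.2% of all 14112 tested genes did. Only Psma5, an alpha ring subunit, was called, that is, had an adjusted p under 0.05 (edgeR quasi-likelihood test, Benjamini-Hochberg over all tested genes). That is 2.17% of the 46, near the background of 1.2% of all tested genes called in either direction (0.737% higher and 0.468% lower). At an unadjusted p under 0.05, 11 of the 46 were higher and 1 lower, against 11.2% and 9.77% of all tested genes. In 11 of the 46 genes (23.9%) every scMC38 library lay above every control, against 6.82% of all tested genes, and in 1 gene, Psmg1, every scMC38 library lay below, against 6.45%. The median log2 fold change was 0.13 over the 46 genes and 0.00087 over all tested genes, and without scMC38 4 it was 0.075 over the 46. The median SD within a group was 0.12 on the log2 scale, against 0.22 over all tested genes.

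**Figure D1:**
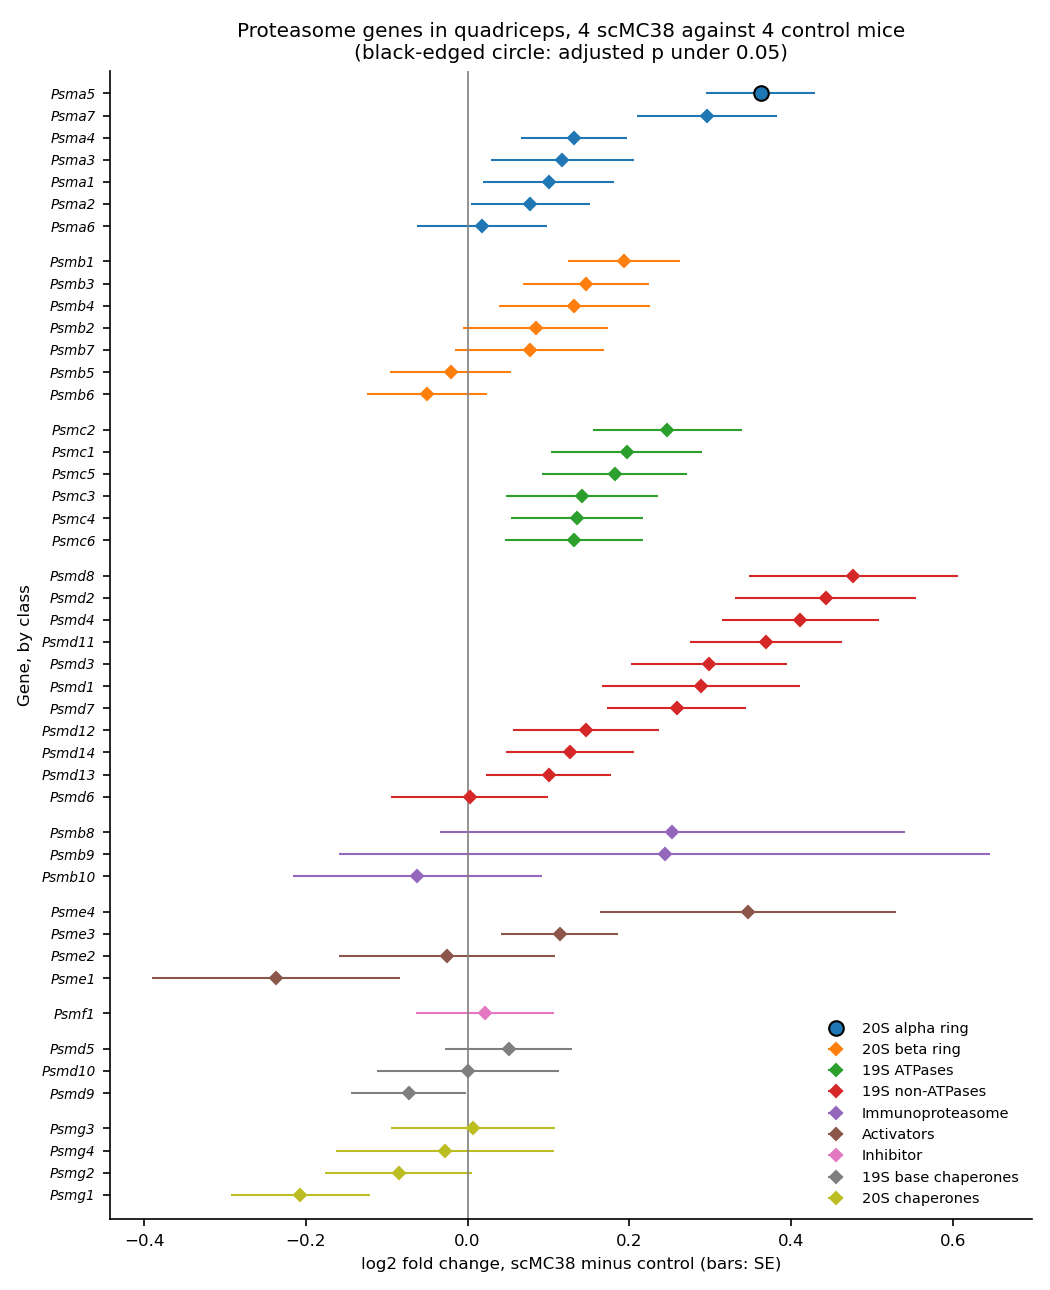
Log2 fold change of each tested proteasome gene (x axis, scMC38 minus control, 4 mice each, bars show the SE) with genes listed by class on the y axis. The non-ATPase genes Psmd8, Psmd2 and Psmd4 lie farthest to the right, at 0.48, 0.44 and 0.41, the catalytic genes Psmb5 and Psmb6 lie near 0, and Psma5 is the gene called.

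The 17 genes of the 19S particle all had positive log2 fold changes in the main test, with a median log2 fold change of 0.20 and a range from 0.0028 to 0.48. The sign of the lowest, Psmd6, was not stable. It was at -0.01 when mitochondrially encoded genes were left out of the scaling, between -0.049 and -0.015 without control 1, control 2, scMC38 2 or scMC38 4, and at -0.105 without controls 1 and 2 together. None of the 17 was called by edgeR, against 1.2% of all tested genes. At an unadjusted p under 0.05, 8 of the 17 were higher, against 11.2% of all tested genes. DESeq2 called 6 of the 17 higher, against 5.89% of all tested genes. In 7 of the 17 the groups did not overlap, all higher, against 6.82%. The 11 non-ATPase genes had a median of 0.29, and the 6 ATPase genes had 0.16. Leaving out scMC38 4 gave a median of 0.126 for the 17, and leaving out both scMC38 1 and 3 gave 0.345.

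Among the non-ATPase genes, Psmd4, which encodes a receptor for ubiquitin chains, stood at 105, 103, 118 and 109.9 CPM in controls 1 to 4 and at 132, 152, 132 and 165 CPM in scMC38 1 to 4. All scMC38 libraries were above all controls, with scMC38 2 and 4 the highest (109 ± 6.79 against 145 ± 16.01 CPM, SD, n = 4; log2 fold change 0.41, SE 0.097, adjusted p = 0.0824, edgeR). Psmd2 encodes the scaffold on which shuttle proteins that bring ubiquitinated cargo dock. Its level was 212, 182, 214 and 224 CPM in controls 1 to 4 and 260.1, 292, 254 and 325 CPM in scMC38 1 to 4, again with no overlap (log2 fold change 0.44, SE 0.11, adjusted p = 0.0883, edgeR). Psmd8, a lid subunit that joins late in assembly, had the largest fold change of the 46 tested members. It stood at 212, 188, 235 and 264 CPM in controls 1 to 4 and at 288, 324, 284 and 355 CPM in scMC38 1 to 4, so that control 4 came close to scMC38 3 (log2 fold change 0.48, SE 0.13, adjusted p = 0.100, edgeR). Psmd11, a lid subunit that braces the 19S particle against the core and whose level limits how many capped proteasomes are built in human stem cells, stood at 109.6, 102, 110.2 and 116 CPM in controls 1 to 4 and at 138, 147, 123 and 158 CPM in scMC38 1 to 4. The lowest scMC38 library, scMC38 3, was still above the highest control (log2 fold change 0.37, SE 0.094, adjusted p = 0.0902, edgeR). Psmd2 and Psmd8, like Psmd1, Psmd3, Psmd7, Psma7, Psmb5 and Psmb7 below, were picked with their values known. DESeq2 called these 4 genes and 5 other members higher, 19.6% of the 46, where it called 5.89% of all tested genes higher. In limma voom with quality weights it was 10.9% of the 46 against 2.5%, and with total count scaling 13% against 1.53%. Total count scaling shifted the median log2 fold change of all tested genes to 0.11. With no filter on low counts, with the replicate block and in each of the 8 fits that leave out 1 library, no member was called.

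**Figure D2:**
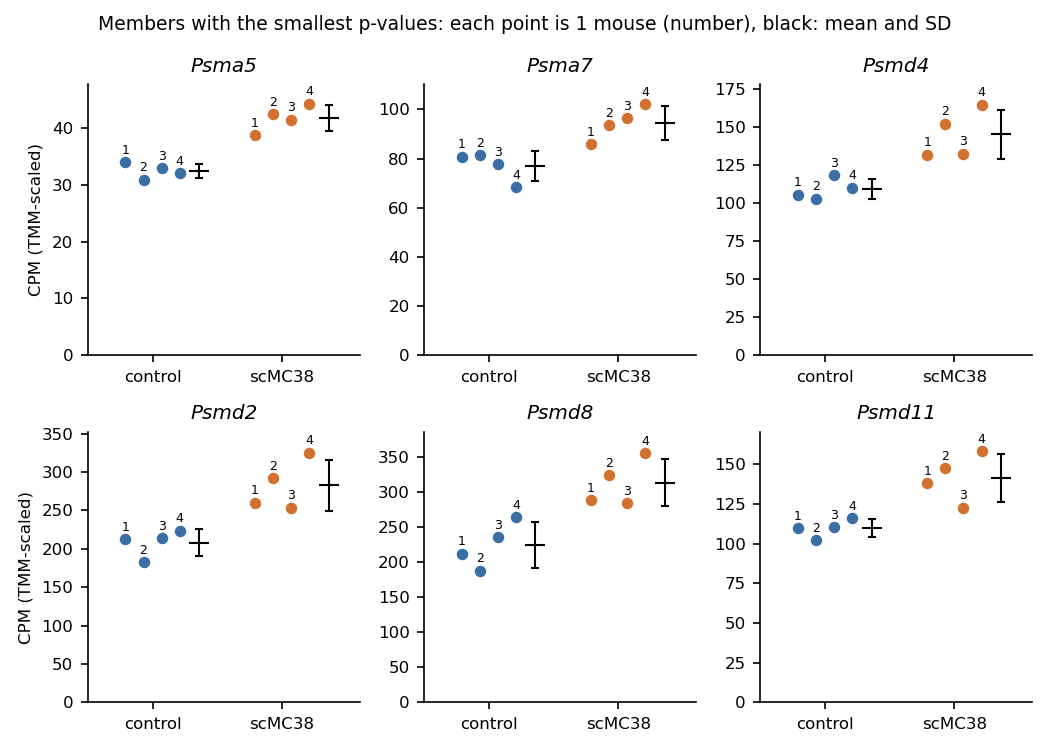
Levels of Psma5, Psma7, Psmd4, Psmd2, Psmd8 and Psmd11 in CPM (y axis, from 0) in each of the 4 control and 4 scMC38 mice (numbered points), with mean and SD in black. In each of these genes all scMC38 points lie above all control points, and scMC38 4 is the highest.

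The promoters of the 4 19S genes with the largest fold changes, Psmd8, Psmd2, Psmd4 and Psmd11, are shown because their groups did not overlap, beside Psma5, the gene called, and Psmb6, the catalytic gene with the lowest fold change. Sequences are the 250 bases before each RefSeq gene start on GRCm38.p6, 5′ to 3′ on the gene's strand, with capitals for a match to any of 10 motifs. The last 28 bases of the Psmd8 window lie in an exon of Psmd8 in GENCODE M21 and are not printed, and an exon of the antisense gene 1700010K24Rik reaches into the Psma5 window. Of the 48 members, 40 had an entry, and Psma8, Psmb1, Psmb2, Psmb7, Psmc3, Psmd3, Psmd7 and Psmg2 had none. The motifs, searched on both strands with overlaps allowed, were the antioxidant response core TGACNNNGC, the interferon-gamma motif TTCNNNGAA, the interferon-stimulated response element, the FoxO motif GTAAACA, the CCAAT box, the Ets motif CCGGAAG, the E-box CACGTG, the cAMP response element TGACGTCA, the nuclear respiratory factor motif and the heat shock pair GAANNTTC.
Psmd8 (chr7:29180702-29180923, minus strand): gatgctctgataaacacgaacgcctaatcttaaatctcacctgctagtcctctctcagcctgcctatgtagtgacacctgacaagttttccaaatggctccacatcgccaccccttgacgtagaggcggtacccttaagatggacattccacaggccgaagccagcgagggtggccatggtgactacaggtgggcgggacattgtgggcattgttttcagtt
Psmd2 (chr16:20651402-20651651, plus strand): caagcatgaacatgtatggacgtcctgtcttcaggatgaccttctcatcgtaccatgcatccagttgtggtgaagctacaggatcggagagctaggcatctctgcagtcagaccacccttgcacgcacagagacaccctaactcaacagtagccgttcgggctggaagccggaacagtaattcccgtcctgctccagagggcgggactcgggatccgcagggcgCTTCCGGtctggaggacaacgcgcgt
Psmd4 (chr3:95042615-95042864, minus strand): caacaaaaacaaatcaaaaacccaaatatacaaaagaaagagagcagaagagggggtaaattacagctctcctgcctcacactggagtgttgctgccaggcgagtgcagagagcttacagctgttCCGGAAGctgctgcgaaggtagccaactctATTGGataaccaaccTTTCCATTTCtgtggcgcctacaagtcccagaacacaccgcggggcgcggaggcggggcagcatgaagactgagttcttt
Psmd11 (chr11:80428365-80428614, plus strand): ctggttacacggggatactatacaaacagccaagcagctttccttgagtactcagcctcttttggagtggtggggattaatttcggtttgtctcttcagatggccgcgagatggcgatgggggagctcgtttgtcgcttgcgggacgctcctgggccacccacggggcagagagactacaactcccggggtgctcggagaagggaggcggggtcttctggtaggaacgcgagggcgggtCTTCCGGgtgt
Psma5 (chr3:108256676-108256925, plus strand): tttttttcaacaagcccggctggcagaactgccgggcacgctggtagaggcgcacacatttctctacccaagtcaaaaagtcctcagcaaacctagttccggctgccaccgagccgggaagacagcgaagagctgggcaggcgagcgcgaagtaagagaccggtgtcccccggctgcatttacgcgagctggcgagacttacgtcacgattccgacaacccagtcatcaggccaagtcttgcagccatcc
Psmb6 (chr11:70525107-70525356, plus strand): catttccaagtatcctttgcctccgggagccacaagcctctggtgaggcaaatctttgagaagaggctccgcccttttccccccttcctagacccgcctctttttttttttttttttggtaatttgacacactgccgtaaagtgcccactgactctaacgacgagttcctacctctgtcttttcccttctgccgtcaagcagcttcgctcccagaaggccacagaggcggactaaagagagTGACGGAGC

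Psmd8, the 19S gene with the largest fold change, held none of the 10 motifs in its 222 printed bases, which leave out the 28 bases nearest the start. Psmd2, Psmd4 and Psmd11 each held the Ets motif, with matches starting 26, 125 and 11 bases before the start. The matches of Psmd2 and Psmd11 lie in the stretch that was left out for Psmd8. Psmd4 also held a CCAAT box and an interferon-stimulated response element. Psma5 also held none of the 10, and Psmb6 held the antioxidant response core ending at the last base before the start. Over the 40 promoters, the Ets motif was found in 8 of 14 promoters of 19S genes, in 0 of 11 of core genes and in 2 of 4 of activator genes, against 13.1% of the 10602 tested genes with an entry. Psmd6, the 19S gene with the lowest fold change, was among the 8. The antioxidant response core was found in 5 of 40 (12.5%, against 12.01%), among them Psmb5 and Psmb6. CCAAT was found in 14 of 40 (35%, against 36.0%) and the nuclear respiratory factor motif in 6 of 40 (15%, against 7.74%). The FoxO motif and TGACGTCA were found in 0 of 40, against 2.15% and 2.58%. The motif TTCNNNGAA was found in Psmb8 and Psmg1, the interferon-stimulated response element in Psmb3, Psmd4 and Psmd9, the heat shock pair in Psmb5, Psmb9 and Psmf1, and CACGTG in Psma4, Psmb10, Psmd9 and Psme3. These are matches of letters in a window, and no binding was measured.

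Other lid subunits also had groups that did not overlap. Psmd3, a lid subunit, stood at 117 ± 3.08 and 145 ± 17.7 CPM (SD, n = 4), with an adjusted p of 0.136 by edgeR. Psmd7, which encodes the partner of the deubiquitinase PSMD14, stood at 146 ± 6.05 and 174 ± 14.9 CPM (SD, n = 4), with an adjusted p of 0.145 by edgeR. In Psmd1, another large scaffold of the base, control 4 (169 CPM) exceeded scMC38 3 (157 CPM), and the fold change was 0.29 (SE 0.12, adjusted p = 0.223, edgeR). The remaining lid genes had smaller values. Psmd14 itself, which removes the ubiquitin chain, had a log2 fold change of 0.13 (adjusted p = 0.383), and Psmd12 and Psmd13 stood at 0.15 and 0.10. Psmd6, also a lid subunit, was at 0.0028 (SE 0.097, adjusted p = 0.990, edgeR), with 95.8, 89.8, 104 and 109 CPM in controls 1 to 4 and 97.7, 104, 87.9 and 110.2 CPM in scMC38 1 to 4. Its lowest and its highest values both came from scMC38 libraries.

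The 6 ATPase genes encode the ring that unfolds the substrate. Psmc2 had the smallest p of them and the only groups in the ring that did not overlap, at 113, 105, 118 and 117 CPM in controls 1 to 4 and at 126, 135, 123 and 154 CPM in scMC38 1 to 4 (log2 fold change 0.25, SE 0.092, adjusted p = 0.178, edgeR). scMC38 3 was the lowest scMC38 library and lay just above control 3. The other ATPase genes had log2 fold changes from 0.13 in Psmc6 to 0.20 in Psmc1, with adjusted p from 0.268 to 0.413. Psmc6 stood at 92.7, 83.1, 90.0 and 87.7 CPM in controls 1 to 4 and at 91.3, 95.7, 90.2 and 110.1 CPM in scMC38 1 to 4, where control 1 exceeded scMC38 1 and scMC38 3, and its log2 fold change was 0.063 without scMC38 4.

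In the 20S core, the 7 tested alpha ring genes had a median log2 fold change of 0.12, the 4 non-catalytic beta ring genes 0.14 and the 3 catalytic genes -0.021. Of the 14 tested core genes, 12 had positive and 2 negative log2 fold changes, where 50.2% of all tested genes were positive. The groups did not overlap in 4 of the 14, all higher, against 6.82% of all tested genes. The median log2 fold change of the 14 was 0.11. Leaving out scMC38 4 lowered that median to 0.069, and leaving out both scMC38 1 and 3 raised it to 0.199. Psma5 rose from 32.5 ± 1.29 to 41.8 ± 2.33 CPM (SD, n = 4; log2 fold change 0.36, SE 0.068, adjusted p = 0.0480, edgeR), a 1.29-fold difference. Single libraries stood at 34.0, 31.0, 33.0 and 32.1 CPM in controls 1 to 4 and at 38.8, 42.5, 41.5 and 44.4 CPM in scMC38 1 to 4, so the gap between the highest control and the lowest scMC38 library was wider than the spread within the controls. Its call was lost in each of the 8 fits that leave out 1 library (adjusted p from 0.0714 to 0.129) and without any filter on low counts (adjusted p = 0.0755), and in 12 of 18 alternatives in all. Psma5 overlaps the gene 1700010K24Rik on the opposite strand in the GENCODE M21 annotation, as do 8 other members with their own neighbours (Psma4, Psmb7, Psmb8, Psmb9, Psmc3, Psmd3, Psmd13 and Psme1), and no source states whether counting used strand, so reads of such pairs may not be told apart.

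Psma7, which lies in the same ring, stood at 80.7, 81.3, 77.6 and 68.3 CPM in controls 1 to 4 and at 85.9, 93.6, 96.3 and 102 CPM in scMC38 1 to 4. All scMC38 libraries were higher than all controls (log2 fold change 0.30, SE 0.086, adjusted p = 0.115, edgeR). In Psma4 the groups also did not overlap, but the difference was 0.13 (adjusted p = 0.289), in the gene with the smallest spread between mice of the 46 (SD 0.054 on the log2 scale). Psma1, Psma2 and Psma3, also of the alpha ring, were between 0.078 and 0.12. Psma6 had the lowest value in the ring, 0.018 (SE 0.080, adjusted p = 0.923, edgeR), at 83.1, 89.4, 93.1 and 89.6 CPM in controls 1 to 4 and at 89.0, 90.8, 81.1 and 98.8 CPM in scMC38 1 to 4. Of all 8 libraries, scMC38 3 was the lowest and scMC38 4 the highest.

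Among the beta subunits, Psmb1 had the smallest p, at 90.5, 93.1, 90.7 and 85.1 CPM in controls 1 to 4 and at 97.8, 102, 102 and 109 CPM in scMC38 1 to 4 (log2 fold change 0.19, SE 0.069, adjusted p = 0.163, edgeR). The groups did not overlap, and the distance between control 2 and scMC38 1 was smaller than the range from lowest to highest library within either group. The non-catalytic genes Psmb2, Psmb3 and Psmb4 had log2 fold changes of 0.084, 0.15 and 0.13. The 3 catalytic genes were close to 0. Psmb5, the chymotrypsin-like subunit and the main target of bortezomib, stood at 79.6, 79.7, 82.1 and 74.0 CPM in controls 1 to 4 and at 75.0, 78.4, 72.4 and 85.1 CPM in scMC38 1 to 4 (log2 fold change -0.021, SE 0.075, adjusted p = 0.9002, edgeR). Psmb6, the caspase-like subunit, had the lowest value of the ring (log2 fold change -0.050, SE 0.075, adjusted p = 0.731, edgeR), at 122, 121, 124 and 115 CPM in controls 1 to 4 and at 111, 119, 109.9 and 126 CPM in scMC38 1 to 4. Psmb7, the trypsin-like subunit, was at 0.077 (adjusted p = 0.662), and leaving out scMC38 2, 3 or 4 gave 0.044, 0.131 and 0.021. In all 3 the groups overlapped. The sign of Psmb5 and Psmb6 turned positive when libraries were scaled by total counts alone (0.081 and 0.052), a scaling that shifted the median of all tested genes to 0.11.

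The class values in single libraries showed how these differences were spread over the mice. For each class, log2 CPM was averaged over its tested genes, and the mean of the 4 controls was subtracted. The 19S genes stood at -0.014, -0.088, 0.049 and 0.052 in controls 1 to 4 and at 0.15, 0.26, 0.088 and 0.41 in scMC38 1 to 4. Every scMC38 value was above every control value, with scMC38 4 farthest and scMC38 3 nearest. The 20S core genes stood at 0.024, 0.029, 0.021 and -0.074 in controls 1 to 4 and at 0.038, 0.12, 0.069 and 0.24 in scMC38 1 to 4, again with scMC38 4 highest. In scMC38 4 the leukocyte genes summed to 33.2 CPM, within the control range of 25.1 to 34.3 CPM, and in scMC38 3 to 357 CPM, so that the library with the lowest leukocyte signal of the 4 had the highest 19S and 20S levels. The muscle genes stood at 0.30 in scMC38 4 and -0.16 in scMC38 3 on the same scale, and at -0.36 in control 4. The 7 red cell genes, which include the globin genes and Alas2, summed to 501 to 1087 CPM in controls and 1643 to 2872 CPM in scMC38. All 7 were called higher by edgeR, against 0.737% of all tested genes, and 5 by limma voom with quality weights, against 2.5%. Their sums in scMC38 2 and 4 were 1668 and 1643 CPM, so these libraries stood above the controls in red cell genes, although scMC38 4 did not in leukocyte genes. The part of cell mixture in the proteasome levels was not tested.

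**Figure D3:**
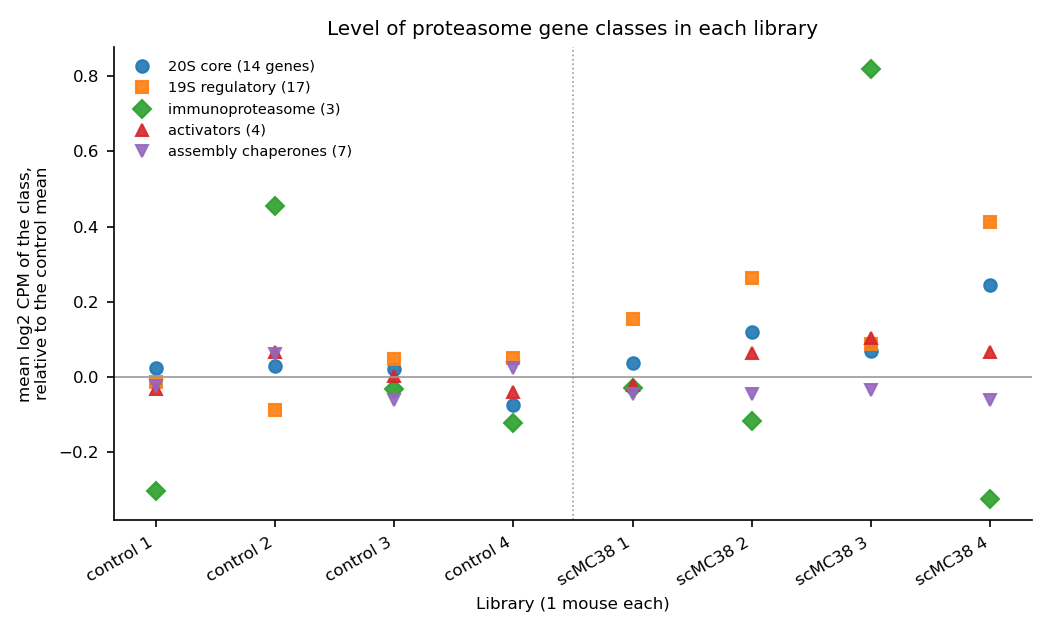
Mean log2 CPM of each proteasome gene class relative to its control mean (y axis) in each library (x axis, 1 mouse each). The 19S genes reach 0.41 in scMC38 4, while the immunoproteasome genes peak at 0.82 in scMC38 3 and 0.46 in control 2.

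Levels can be compared between genes only per length, and CPM was divided by the length in kb of the longest principal transcript in GENCODE M21. On this scale the control means of the 14 tested core genes ran from 21.1 CPM per kb in Psma2 to 151 CPM per kb in Psmb6. The order depends on the transcript chosen. Psma2 stood at 61.3 CPM over 2911 bases, and Psma1 at 64.0 CPM over 1201 bases, or 53.3 CPM per kb. The 17 genes of the 19S particle ran from 25.5 CPM per kb in Psmd13 to 146 CPM per kb in Psmd8. The assembly chaperones were lower, from 3.82 CPM per kb in Psmd5 to 13.5 CPM per kb in Psmg2, and the inhibitor Psmf1 stood at 4.07 CPM per kb. The immunoproteasome genes were also low, with 1.87 CPM per kb in Psmb9, 3.84 in Psmb8 and 6.69 in Psmb10. The activators ran from 17.4 CPM per kb in Psme2 to 45.8 CPM per kb in Psme4.

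The immunoproteasome genes showed no difference between the groups beyond the spread between mice. Psmb8, the replacement for Psmb5, stood at 4.97, 8.44, 5.92 and 5.70 CPM in controls 1 to 4 and at 6.31, 6.13, 12.2 and 5.12 CPM in scMC38 1 to 4 (log2 fold change 0.25, SE 0.29, adjusted p = 0.644, edgeR). Psmb9, the replacement for Psmb6, stood at 1.64, 3.65, 2.52 and 2.28 CPM in controls 1 to 4 and at 2.28, 2.19, 5.67 and 1.77 CPM in scMC38 1 to 4 (log2 fold change 0.24, SE 0.40, adjusted p = 0.758, edgeR). Both were highest in scMC38 3 and next highest in control 2, and the other 6 libraries lay between 4.97 and 6.31 CPM for Psmb8 and between 1.64 and 2.52 CPM for Psmb9. Psmb10, the replacement for Psmb7, stood at 8.37, 10.9, 8.12 and 7.72 CPM in controls 1 to 4 and at 8.47, 7.53, 10.4 and 7.21 CPM in scMC38 1 to 4 (log2 fold change -0.062, SE 0.15, adjusted p = 0.845, edgeR), with control 2 above scMC38 3 and a log2 fold change of 0.056 without control 2 and 0.065 under total count scaling. Without scMC38 3, the log2 fold changes of Psmb8 and Psmb9 were -0.099 and -0.279, so their sign rested on 1 library.

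Ratios within a library need no scaling between libraries, and 3 such ratios were compared. Per length, Psmb8 reached 4.38% ± 1.03 of Psmb5 in controls and 5.40% ± 2.67 in scMC38 (SD, n = 4), with 9.32% in scMC38 3 and 5.85% in control 2. Psmb9 reached 1.23% ± 0.407 of Psmb6 in controls and 1.54% ± 1.01 in scMC38. Psmb10 reached 5.43% ± 0.941 of Psmb7 in controls and 5.03% ± 1.40 in scMC38. The highest value in any library was 9.32%. On the log2 scale the ratios differed by 0.22, 0.19 and -0.14 between scMC38 and control (two-sided exact permutation test over 70 assignments, p = 0.629, 0.743 and 0.571, each with an adjusted p of 0.743 over the 3 ratios). The smallest p this design allows is 0.0286.

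Genes that work beside the immunoproteasome were on average high in the same libraries. The 9 antigen presentation genes, which include the peptide transporter genes Tap1 and Tap2, stood at 0.32 in control 2 and 0.44 in scMC38 3 as a mean log2 CPM on the same scale, and between -0.36 and -0.026 in the other 6. Tap1 is the gene that overlaps Psmb9 on the opposite strand, so their reads may not be told apart. None of the 9 was called by edgeR, against 1.2% of all tested genes, and 0 by DESeq2, which called 5.89% of all tested genes higher. At an unadjusted p under 0.05 it was 0, against 11.2% higher and 9.77% lower. With only 9 genes, counts of 0 do not set this list apart from all tested genes. The median log2 fold change of the 9 was -0.090. The smallest p belonged to Erap1, a peptide-trimming enzyme (log2 fold change -0.11, SE 0.072, adjusted p = 0.411), and Nlrc5, an activator of class I genes (log2 fold change -0.49, SE 0.36, adjusted p = 0.456, both edgeR). The value of Nlrc5 was -0.222 without control 2, -0.289 without scMC38 2 and -0.819 without scMC38 3. Ptprc, which encodes the pan-leukocyte protein CD45, was at 23.5 CPM in scMC38 3 but at 1.94 CPM in control 2, the lowest of the 8. In the other leukocyte genes control 2 was not the lowest. Coro1a was at 4.19 CPM in control 2, the highest control but below all scMC38 libraries. In Lcp1, Laptm5 and Rac2 only control 4 of the controls was above control 2, and in Cd53 control 3 was as well. The 6 leukocyte genes summed to 25.1 to 34.3 CPM in controls and 33.2 to 357 CPM in scMC38, the 9 macrophage genes to 115 to 160.0 CPM in controls and 130.0 to 579 CPM in scMC38, and the 8 T and NK cell genes to 0.452 to 0.757 CPM in controls and 0.265 to 7.12 CPM in scMC38. Control 4 was the highest control in the leukocyte and macrophage sums, at 34.3 and 160.0 CPM. In the T and NK cell sum it was control 2, at 0.757 CPM, below scMC38 1 at 1.21 CPM and scMC38 3 at 7.12 CPM. No gene of these 3 lists was at 0 in all libraries of a group, and their part in the immunoproteasome levels was not tested.

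**Figure D4:**
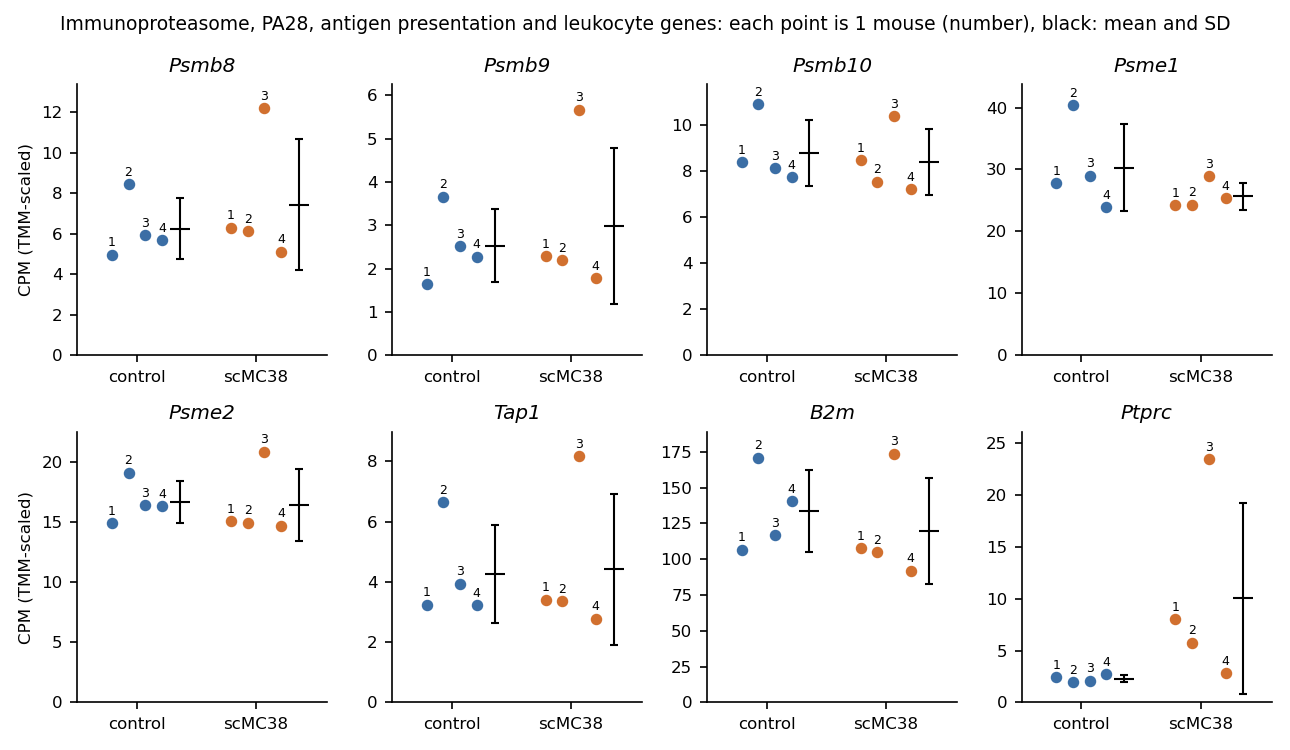
Levels in CPM (y axis, from 0) of the immunoproteasome genes Psmb8, Psmb9 and Psmb10, the activator genes Psme1 and Psme2, the antigen presentation genes Tap1 and B2m and the leukocyte gene Ptprc in each control and scMC38 mouse (numbered points), with mean and SD in black. Control 2 and scMC38 3 stand out in the first 7 genes, with the exception of Psme1, where control 2 alone does, and control 2 is not high in Ptprc. Psmb9 and Tap1 overlap on opposite strands.

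Of the 4 activator genes, 2 had positive and 2 negative log2 fold changes. None was called by edgeR, against 1.2% of all tested genes, and none by DESeq2, which called 5.89% of all tested genes higher. At an unadjusted p under 0.05 it was 0, against 11.2% higher and 9.77% lower. With only 4 genes, counts of 0 do not set this class apart from all tested genes. Psme1 and Psme2 encode the subunits of the interferon-inducible PA28 ring, which opens the core without ATP. Psme1 stood at 27.8, 40.4, 29.0 and 23.9 CPM in controls 1 to 4 and at 24.3, 24.3, 28.9 and 25.3 CPM in scMC38 1 to 4 (log2 fold change -0.24, SE 0.15, adjusted p = 0.401, edgeR). Control 2 was the highest of the 8, and without it the log2 fold change was -0.069. Psme2 stood at 14.9, 19.1, 16.4 and 16.4 CPM in controls 1 to 4 and at 15.1, 14.97, 20.9 and 14.7 CPM in scMC38 1 to 4 (log2 fold change -0.025, SE 0.13, adjusted p = 0.936, edgeR), where scMC38 3 and control 2 were the highest. Its sign was positive under total count scaling (0.098). A near-identical copy, Psme2b, held 20.8 to 61.7 estimated counts per library, so the split of reads between these copies is uncertain. Psme3 encodes the nuclear form PA28-gamma and stood at 58.4, 59.4, 55.7 and 53.0 CPM in controls 1 to 4 and at 56.7, 60.2, 63.1 and 65.1 CPM in scMC38 1 to 4 (log2 fold change 0.11, SE 0.072, adjusted p = 0.389, edgeR). Psme4 encodes PA200, a large single-chain activator, and had the largest fold change of the class. It stood at 311, 214, 311 and 353 CPM in controls 1 to 4 and at 374, 446, 288 and 405 CPM in scMC38 1 to 4 (log2 fold change 0.35, SE 0.18, adjusted p = 0.310, edgeR). scMC38 3 lay below 3 of the 4 controls, and control 2 was the lowest of all. The fold change of Psme4 was 0.458 without scMC38 3 and 0.217 without control 2.

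The 7 assembly chaperone genes had log2 fold changes from -0.21 to 0.051. None was called by edgeR, against 1.2% of all tested genes, and none by DESeq2, which called 5.89% of all tested genes higher. At an unadjusted p under 0.05, 1 of the 7 was lower, against 9.77% of all tested genes. Psmg1, which with its partner Psmg2 nucleates the alpha ring, was the member with the smallest p among those lower in scMC38. It stood at 7.62, 7.46, 7.56 and 7.88 CPM in controls 1 to 4 and at 6.17, 7.06, 6.59 and 6.62 CPM in scMC38 1 to 4, with every scMC38 library below every control (log2 fold change -0.21, SE 0.086, adjusted p = 0.218, edgeR). Psmg2 had a log2 fold change of -0.085, and Psmg3 and Psmg4, which form the second pair of core chaperones, had 0.0070 and -0.028. Of the 3 chaperones of the 19S base, Psmd9 was at -0.073 (SE 0.071, adjusted p = 0.584, edgeR), with 19.2, 20.4, 18.4 and 17.6 CPM in controls 1 to 4 and 17.8, 16.9, 18.5 and 18.6 CPM in scMC38 1 to 4, and Psmd5 and Psmd10, which encodes gankyrin, were at 0.051 and 0.00073. The median of the 7 chaperone genes was -0.028, against 0.20 for the 19S and 0.11 for the 20S genes. Under total count scaling the chaperone median was 0.084 and Psmd9 was at 0.037, where the median of all tested genes was 0.11. Psmf1, which encodes the inhibitor PI31, stood at 15.6, 15.6, 16.3 and 14.5 CPM in controls 1 to 4 and at 15.4, 14.8, 14.8 and 18.0 CPM in scMC38 1 to 4 (log2 fold change 0.022, SE 0.085, adjusted p = 0.910, edgeR). The difference between classes was not tested.

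The remaining 2 members were too low to be tested. Psma8, the testis form of an alpha subunit, had 0, 0, 1 and 0 estimated counts in controls 1 to 4 and 4, 2, 18 and 1 in scMC38 1 to 4, with most of them in scMC38 3. Psmb11, the thymus form of the catalytic subunit, had between 1.16 and 4 estimated counts in every library. A count of 0 allows up to 3 counts, which covers counting error only.

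Other genes of the pathway also had mostly positive fold changes. Outside the members, 26 genes were measured, covering ubiquitin, shuttle factors, the segregase and further proteasome-bound proteins. Of these, 20 had a positive log2 fold change (76.9%, against 50.2% of all tested genes), and none was called by edgeR (against 1.2%). At an unadjusted p under 0.05, 9 of the 26 were higher, against 11.2% of all tested genes. DESeq2 called 6 of the 26 higher, against 5.89%. The groups did not overlap in 7, all higher (26.9%, against 6.82% of all tested genes). The median log2 fold change of the 26 was 0.12. Ubb, a polyubiquitin gene, had the smallest p, at 815, 764, 803 and 845 CPM in controls 1 to 4 and at 1137, 1123, 1081 and 1207 CPM in scMC38 1 to 4 (log2 fold change 0.50, SE 0.095, adjusted p = 0.0510, edgeR). Nploc4, an adaptor of the p97 segregase, stood at 85.7, 82.4, 87.7 and 82.7 CPM in controls 1 to 4 and at 106, 119, 100.1 and 125 CPM in scMC38 1 to 4 (log2 fold change 0.41, SE 0.087, adjusted p = 0.0691, edgeR). In both genes all scMC38 libraries were above all controls. Nfe2l1, the transcription factor that induces proteasome genes when the proteasome is inhibited, had a log2 fold change of 0.00013 (adjusted p = 0.9999, edgeR), and Ddi2, the protease that cleaves it into its active form, had 0.59 (adjusted p = 0.112). Pomp, the core maturation factor, stood at -0.017 and the ubiquitin receptor gene Adrm1 at 0.36. These 4 were picked with their values known. The muscle ubiquitin ligase genes Fbxo32 and Trim63, both called, rose by 1.79 and 1.55 on the log2 scale, and these calls were lost in 6 and 10 of 18 alternatives. Fbxo32 was highest in scMC38 4 (2013 CPM), the library that also had the highest 19S level. The order did not hold throughout. In scMC38 3, which had the lowest 19S level of the scMC38 group, Fbxo32 stood at 1387 CPM, above scMC38 1 at 906 CPM.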

How the data were processed

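Estimated counts per gene were deposited as 1 table of 8 libraries. Per the submitters' processing notes, fastp 1.0.1, FastQC 0.12.1, MultiQC 1.30, Salmon 1.10.3, R 4.4.3 and the build GRCm39 were used. The annotation release and the handling of strand were not found in the labels. Of 35667 rows, 144 without a symbol (at most 0.00403% of counts) were left out, 26 repeated symbols were summed, and counts were rounded.

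Genes passing edgeR's filterByExpr (14112) were tested, scMC38 against control, with TMM scaling and the robust quasi-likelihood test of edgeR 4.0.16 in R 4.3.3, Benjamini-Hochberg over all tested genes. A call is an adjusted p under 0.05. The biological coefficient of variation was 27.3%. Log2 CPM used a prior count of 2. Alternatives were other scalings and filters, DESeq2 1.42.0, voom in limma 3.58.1, a replicate block and left-out libraries. The edgeR script was tested on simulated data. No pair of libraries agreed within sampling noise. Intervals of counting error are not given, since p-values rest on the spread between mice.

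The members and gene lists were chosen with earlier results of these data known. Values in every library are given for called members, Psma5, Psmb8, Psmd11, the immunoproteasome and Psme genes, and in each other class for the member with the smallest p and the one with the lowest fold change. Some genes outside that rule are marked in the text as picked with their values known. Other members outside it, such as Psma4, Psmd14 and Psmg2, are also named with single values but without that mark. 1 gene of the antigen presentation list is not reported here and was left out of that list's values.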

Additional observations from a re-analysis of the deposited data

Results flagged for a closer look

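In 98 groups of 4 mice, a single mouse's CPM was set against the others by Dixon's ratio at its critical value, which chance passes in about 1 of 20 groups, and 5 values passed. In scMC38 3, Psmb8 stood at 12.2 CPM, Psmb9 at 5.67 CPM and Psme2 at 20.9 CPM, each far above the other 3 scMC38 mice. In control 3, Psmd5, a chaperone of the 19S base, stood at 17.9 CPM, and in control 4, Psmg2 stood at 16.4 CPM, each above the other 3 controls.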

How the results depend on the processing

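The count of members called was 1 in the main test. It was 6 with total counts, 9 with DESeq2 and 5 with limma voom with quality weights, all higher, and 0 with no filter, with the replicate block, without scMC38 1 and 3, without controls 1 and 2, and 0 in each of the 8 fits that leave out 1 library. DESeq2 called 5.89%, voom 2.5% and total counts 1.53% of all tested genes higher. Same-numbered mice correlated at -0.11, -0.28, -0.0058 and -0.24, and mice with different numbers at -0.16 to 0.30. No pairing by number was seen, though so few correlations cannot exclude one. The replicate block called 0 genes higher and 1 lower over all genes. The cause of these differences was not tested.

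Class medians under total counts were 0.211 for the 20S core, 0.16 for the activators and 0.084 for the assembly chaperones. Without scMC38 1 and 3 they were 0.199 for the 20S core, 0.345 for the 19S particle and -0.23 for the immunoproteasome. Leaving out 1 library gave -0.184 to 0.429 for the immunoproteasome, -0.034 to 0.09 for the activators and -0.087 to 0.031 for the chaperones. The log2 ratio of Psmb8 to Psmb5 ranged from -0.084 to 0.41 and that of Psmb9 to Psmb6 from -0.2 to 0.417. Without scMC38 1 and 3 these ratios were -0.181 and -0.315, and without controls 1 and 2 that of Psmb10 to Psmb7 was 0.025.

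Of the named genes, 10 changed sign somewhere. Under total counts Psmb5 was at 0.081, Psmb6 at 0.052, Psmb10 at 0.065, Psmd9 at 0.037 and Psme2 at 0.098. Psmd6 was at -0.01 without mitochondrial genes in the scaling, and Psmf1 at -0.005 with voom. Without scMC38 1 and 3, Psmb5 was at 0.072, Psmb6 at 0.043, Psmb8 at -0.131 and Psmb9 at -0.323. Without controls 1 and 2, Psma6 was at -0.034, Psmb10 at 0.074 and Psmd6 at -0.105. Leaving out 1 library gave -0.032 to 0.063 for Psma6, -0.069 to 0.011 for Psmb5, -0.099 to 0.429 for Psmb8, -0.279 to 0.475 for Psmb9, -0.184 to 0.056 for Psmb10, -0.049 to 0.059 for Psmd6, -0.165 to 0.045 for Psme2 and -0.049 to 0.052 for Psmf1.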
